A study of Mus musculus with 2 samples.

Results

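Amino acids cross the plasma membrane and the lysosomal membrane through carriers of the solute carrier (SLC) families. The genes described here are the protein-coding genes whose symbols begin with Slc1a, Slc3a, Slc6a, Slc7a, Slc36a, Slc38a or Slc43a. The rule took 64 of the 21519 protein-coding genes in the count tables. Of these, 63 encode carriers or carrier subunits, while Slc7a6os, named for its position opposite Slc7a6, does not encode a carrier and is given separately. Of the 63, 35 averaged 1 or more CPM (counts per 1000000 counts in a library) over both libraries, and 18 had no count in either. The members nearest to that limit were Slc6a14 with a mean of 0.672 CPM just below it and Slc7a11 with 1.29 CPM just above it.

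RNA was sequenced from sorted intestinal stem cells, the cells with bright GFP in Lgr5-EGFP-IRES-creERT2 mice, a strain in which the locus of the stem cell gene Lgr5 carries a green fluorescent protein and an inducible Cre recombinase. Both groups were 4 months old and of this same strain. The fed group had standard chow at all times and the other group was fasted, for a time that the labels do not give. Each group was 1 library, and the number of mice in it is not given. No test was therefore possible, and each difference below is between these libraries, with no replicate behind it.

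The fed library held 6985316 counts and the fasted library 5020056. Each ratio is fasted over fed after scaling by median-of-ratios size factors, on the log2 scale, with an exact 95% Clopper-Pearson interval in brackets that covers counting error only. A gene was called higher or lower when it differed by at least 2-fold and its interval excluded equality, among genes with a mean of at least 1 CPM and at least 20 counts in sum. Lgr5 stood at 484 CPM (fed) and 340 CPM (fasted), and the other stem cell markers were present in both. Markers of stroma and endothelium summed to 1.43 and 0.598 CPM, and those of red blood cells to 0 and 0.398 CPM. Immune markers summed to 13.5 and 6.77 CPM, nearly all from Cd68 and Itgam, and 4 of these 10 markers were at 0 in both libraries. Cd68 (25 and 6 counts) was called lower, as were 1.91% of all genes that met these minimums. It passed the count minimum only through its fed counts. Paneth cell markers summed to 1188 and 1020 CPM. Of 11 markers 1, Mmp7, was called higher (9.09%), against 2.51% of all genes that met these minimums. Intervals wholly below equality were found for 6 (54.5%), against 19.2% of those genes.

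In the small intestine, neutral amino acids enter the absorptive cell at the brush border mainly through sodium-coupled carriers, and cationic amino acids and cystine enter in exchange for neutral ones. At the basolateral side, exchangers built of a heavy chain and a light chain, together with uniporters, pass amino acids to the blood. Dividing cells rely on another set, in which sodium-coupled glutamine carriers load the cell and exchangers trade glutamine for leucine, an activator of the growth kinase mTORC1.

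The brush border carrier Slc6a19, the imino acid carrier Slc6a20a and the aromatic amino acid carrier Slc7a15 were higher in the fasted library, by 4.37-fold, 2.67-fold and 3.88-fold. The carriers with the most counts in these cells, Slc1a5 and Slc38a2 for glutamine, Slc7a1 for arginine and Slc6a6 for taurine, had ratios between 0.877 and 1.15. Of 33 transporters with enough counts to be called, 3 were higher (9.09%), 0 were lower and 30 were neither. Among all 12026 genes measured in this way, 2.51% were higher and 1.91% lower. Slc7a15 passed the count minimum only through its fasted counts, and a gene admitted in this way had to differ. Leaving out every gene of that kind, in either direction, 2 of 32 transporters (6.25%) and 1.92% of 11560 genes were higher. Of the 33 transporters, 22 had a positive log2 ratio (66.7%), against 47.9% of all measured genes, and their median was 0.18 against -0.018. Intervals wholly above equality, at any fold, were found for 15 transporters (45.5%) and for 16.7% of all genes, and intervals wholly below it for 2 transporters (6.06%) and 19.2% of all genes. The transporters had a median level of 39.7 CPM, close to the 39.3 CPM of all measured genes. Of 20 markers of absorptive enterocytes, which carry Slc6a19 and Slc6a20a in the normal gut, 11 were also higher in the fasted library, and the list summed to 2535 CPM fed and 3771 CPM fasted. The part of this shift in the transporter values was not tested, and in bulk RNA more cells of a type and more RNA per cell cannot be told apart.

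**Figure D1:**
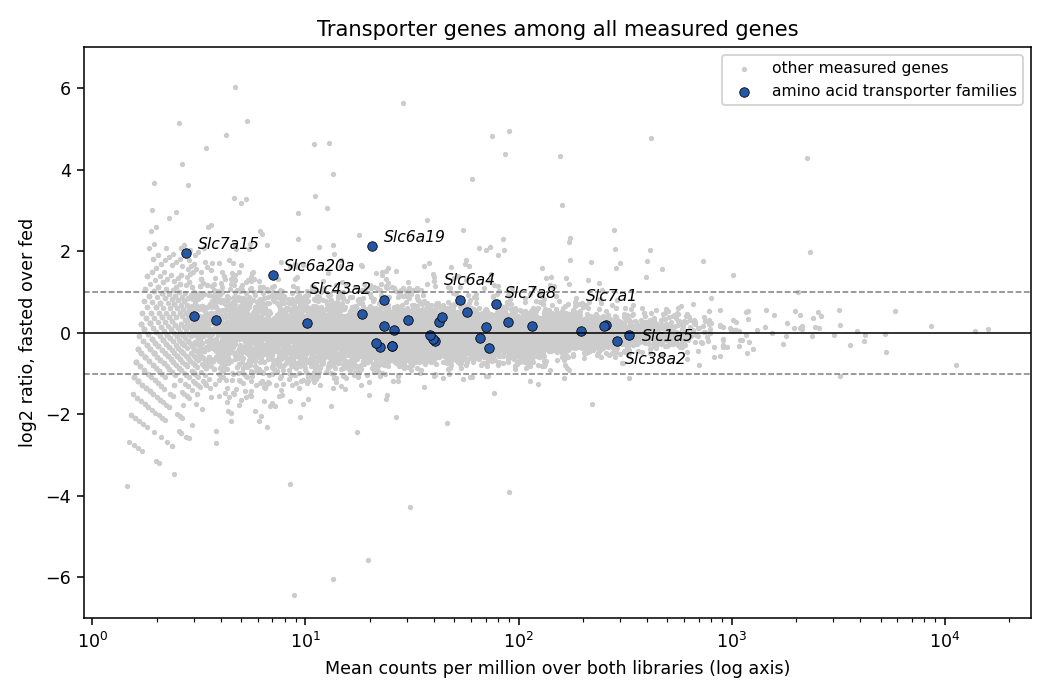
Log2 ratio of fasted over fed (vertical axis) against the mean CPM over both libraries (horizontal log axis) for 33 amino acid transporter genes in blue and all other measured genes in grey; dashed lines mark 2-fold. Slc6a19, Slc6a20a and Slc7a15 lie above the upper line, none lies below the lower line, and the most abundant members lie near 0.

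Slc6a19 encodes B0AT1, the main sodium-coupled carrier of neutral amino acids at the brush border. It is on chromosome 13 (73679745 to 73704865, minus strand, GRCm38). It had 54 counts (7.73 CPM) fed and 167 counts (33.3 CPM) fasted. The log2 ratio was 2.13 (1.68 to 2.60), and its interval alone among the 33 lay wholly beyond 2-fold. It ranked at the 99.6th percentile of the log2 ratios of all measured genes. Slc6a20a encodes SIT1, a carrier of proline and other imino acids (chromosome 9, 123634770 to 123678885, minus strand). It had 27 counts (3.87 CPM) fed and 51 counts (10.2 CPM) fasted, a log2 ratio of 1.42 (0.72 to 2.15). Its exons overlap those of the chemokine receptor gene Ccr9, which itself had at most 2 counts in either library. Its close copy Slc6a20b had no count in either library. Slc7a15 encodes a carrier of aromatic amino acids (chromosome 12, 8528483 to 8599066, minus strand). It had 8 counts (1.15 CPM) fed and 22 counts (4.38 CPM) fasted, a log2 ratio of 1.96 (0.74 to 3.33), so that this call rests on 30 counts. At its fed level in both libraries it would have had 13.7 counts in sum, below the minimum of 20.

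The stretches upstream of these 3 genes are shown because they were the members called higher, and the stretch of the cystine carrier gene Slc7a11 as an example that holds the element bound by C/EBP and ATF factors, through which genes respond to amino acid shortage. All are RefSeq sequences on GRCm38.p6, on the minus strand, ending before the RefSeq start site and leaving out bases that GENCODE release M21 places in exons. They span chr13:73692637-73692886 for Slc6a19, chr9:123678886-123679082 for Slc6a20a, chr12:8599067-8599316 for Slc7a15 and chr3:50443615-50443863 for Slc7a11. The RefSeq start of Slc6a19 lies 12229 bases inside the longer GENCODE gene. Capitals mark the element TGATGNAA on either strand.
Slc6a19: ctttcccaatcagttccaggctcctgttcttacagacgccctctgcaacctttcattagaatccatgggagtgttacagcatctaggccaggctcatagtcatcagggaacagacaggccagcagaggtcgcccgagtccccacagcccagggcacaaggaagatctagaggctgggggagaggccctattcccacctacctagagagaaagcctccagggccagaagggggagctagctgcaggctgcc
Slc6a20a: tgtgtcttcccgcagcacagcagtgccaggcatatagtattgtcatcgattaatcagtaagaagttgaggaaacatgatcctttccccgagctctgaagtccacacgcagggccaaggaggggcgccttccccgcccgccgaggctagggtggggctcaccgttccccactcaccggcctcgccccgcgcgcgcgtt
Slc7a15: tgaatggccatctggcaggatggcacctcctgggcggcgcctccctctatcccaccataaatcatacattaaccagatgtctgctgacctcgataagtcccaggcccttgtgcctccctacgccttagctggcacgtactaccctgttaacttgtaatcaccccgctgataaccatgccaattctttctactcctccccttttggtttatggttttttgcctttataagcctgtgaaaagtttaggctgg
Slc7a11: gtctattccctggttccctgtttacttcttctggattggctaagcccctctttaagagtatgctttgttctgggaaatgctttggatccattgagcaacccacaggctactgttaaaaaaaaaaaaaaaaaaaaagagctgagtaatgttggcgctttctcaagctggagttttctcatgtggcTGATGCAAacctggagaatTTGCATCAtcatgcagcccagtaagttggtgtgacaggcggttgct

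The element TGATGNAA was searched on both strands in RefSeq windows of 300 bases around start sites. It was found in 3.97% of 32851 windows of all genes and in 4 of 40 windows of transporters (10%), which belong to Slc1a4, Slc7a11 and Slc7a7. The windows of Slc7a7 overlap, and 1 site was counted in both windows with the element. It begins 243 bases before one start of Slc7a7 and 1 base before another. The 10% is thus raised by a repeated site. The 40 windows cover 27 of the 35 named transporters, and 3 of these 27 genes held the element. In Slc7a11 the copies begin 66 and 47 bases before the start, on opposite strands. A window of Slc7a7 also held 2 copies, which begin 141 and 1 bases before its start. The direct repeat of AGGTCA with any 1 base between the copies, a form bound by PPAR and HNF4 receptors, was in 0.0396% of all windows, and the glucocorticoid element, searched as GNACA and TGTNC with any 3 bases between them, in 0.475%. Neither was in a transporter window, which says only that these letters are not in these windows. The 250 bases before the start held 3 CG pairs in Slc6a19, 6 in Slc7a15 and 21 in Slc6a20a (16 of them in the 197 bases shown), against a median of 6 over all windows and of 10 over the 40 transporter windows.

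The other broad neutral carriers did not share the ratio of Slc6a19. Slc1a5 encodes ASCT2, an exchanger that brings glutamine into dividing cells, and was the transporter with the highest level in both libraries. It had 2359 counts (338 CPM) and 1609 counts (321 CPM), a log2 ratio of -0.054 (-0.15 to 0.038). Slc1a4, which encodes the related exchanger ASCT1 for alanine and serine, had 28.6 and 22.5 CPM and a log2 ratio of -0.33 (-0.67 to 0.014). Within a library, Slc6a19 reached 0.0229 of the counts of Slc1a5 when fed and 0.104 when fasted. This 4.53-fold change (3.29 to 6.32) does not depend on the scaling between libraries. The pair was chosen after its values were seen and holds the highest ratio of the 33, so that a difference was given beforehand. Slc6a15, Slc6a17 and Slc6a18, the remaining members of this group, had no count.

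Large neutral amino acid carriers had the highest median of the 9 substrate groups. Positive log2 ratios were found for all 4 measured members, against 47.9% of all measured genes, and the median was 0.76. The 1 member called higher was Slc7a15, which passed the count minimum only through its fasted counts. At a minimum of 5 CPM, which leaves 3 members without Slc7a15, the median was 0.72. The summed counts of the 4, which Slc7a5 and Slc7a8 dominate, gave 0.51 (0.39 to 0.64). The group took 6.28% (5.91 to 6.66) of all transporter counts when fed and 8.34% (7.86 to 8.84) when fasted. Slc7a8 encodes LAT2, a basolateral exchanger of neutral amino acids. It went from 416 counts (59.6 CPM) to 484 counts (96.4 CPM), a log2 ratio of 0.72 (0.52 to 0.91). Slc43a2 encodes LAT4, a uniporter of essential neutral amino acids on the same side. It had 17.2 CPM fed and 29.5 CPM fasted, a log2 ratio of 0.80 (0.44 to 1.16). Slc7a5, the gene of LAT1, which supplies leucine to growing cells, had 67.0 and 73.3 CPM and a log2 ratio of 0.15 (-0.050 to 0.35). The Slc7a8 counts were 0.889 times those of Slc7a5 when fed and 1.32 times when fasted, a change of 1.48-fold (1.22 to 1.80). Slc43a1, the gene of LAT3, had 7 and 11 counts, too few to be called.

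**Figure D2:**
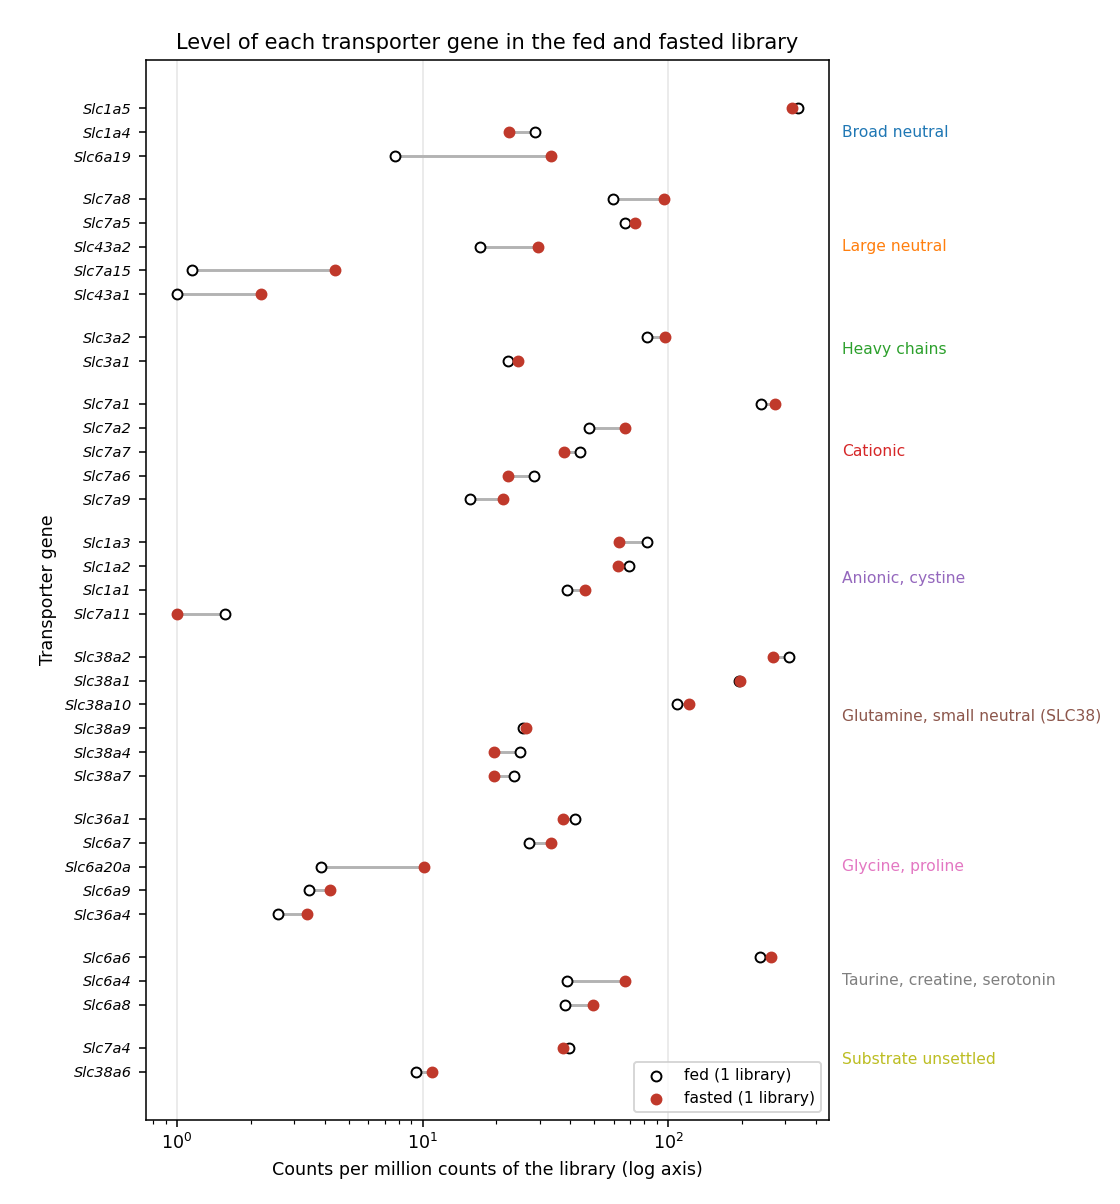
CPM (horizontal log axis) of the 35 named transporter genes in the fed library (open circles) and the fasted library (red circles), by substrate group; each circle is 1 library and grey lines join the values of a gene. The widest gap is that of Slc6a19, from 7.73 to 33.3 CPM, while Slc1a5 stands at 338 and 321 CPM.

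Heavy chains carry the light chains of the Slc7a family to the membrane. Slc3a2, which encodes the heavy chain 4F2hc (CD98), had 571 counts (81.7 CPM) and 488 counts (97.2 CPM), a log2 ratio of 0.27 (0.094 to 0.45). Slc3a1, which encodes the heavy chain rBAT, had 22.2 and 24.5 CPM and a log2 ratio of 0.16 (-0.19 to 0.52). Its exons overlap those of Prepl, an abundant neighbour, so reads in the shared stretch cannot be told apart. The light chains of 4F2hc did not keep a fixed ratio to it. Relative to Slc3a2, Slc7a8 changed by 1.36-fold (1.13 to 1.63), Slc7a5 by 0.920-fold (0.763 to 1.11), Slc7a7 by 0.725-fold (0.579 to 0.907) and Slc7a6 by 0.659-fold (0.502 to 0.861). Slc7a9, the light chain of rBAT, changed by 1.24-fold (0.852 to 1.80) relative to Slc3a1, an interval that includes no change. These pairs were chosen after their values were seen.

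Cationic amino acid carriers had a median log2 ratio of 0.20 over 5 measured members, none of them called, and of -0.19 without the low-count filter. Slc7a1 encodes CAT1, the general carrier of arginine and lysine. It had 1677 counts (240 CPM) and 1367 counts (272 CPM), a log2 ratio of 0.20 (0.099 to 0.31), or 0.33 after correction for exon length. Slc7a2 encodes CAT2, a carrier of the same substrates. It had 332 counts (47.5 CPM) and 335 counts (66.7 CPM), a log2 ratio of 0.51 (0.29 to 0.73). The ratio of Slc7a2 to Slc7a1 within a library changed by 1.24-fold (1.04 to 1.47). Slc7a9 encodes the apical exchanger b0,+AT, which takes up cystine and cationic amino acids. It had 15.6 and 21.3 CPM and a log2 ratio of 0.47 (0.073 to 0.87). The light chains for basolateral exchange of cationic for neutral amino acids had negative values. Slc7a7 (y+LAT1) had 43.7 and 37.6 CPM and a log2 ratio of -0.19 (-0.46 to 0.074), and its exons overlap those of Oxa1l. Slc7a6 (y+LAT2) had 28.5 and 22.3 CPM and a log2 ratio of -0.33 (-0.68 to 0.010). Both intervals include equality. By the side of the enterocyte on which the carrier is known to act, 2 of 6 measured apical members and 0 of 5 basolateral members were higher. Among all measured genes 2.51% were higher. The medians were 0.37 and 0.27. Each carrier was given 1 place only, and Slc36a1 was counted with the lysosome, so these medians depend on the assignment.

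**Figure D3:**
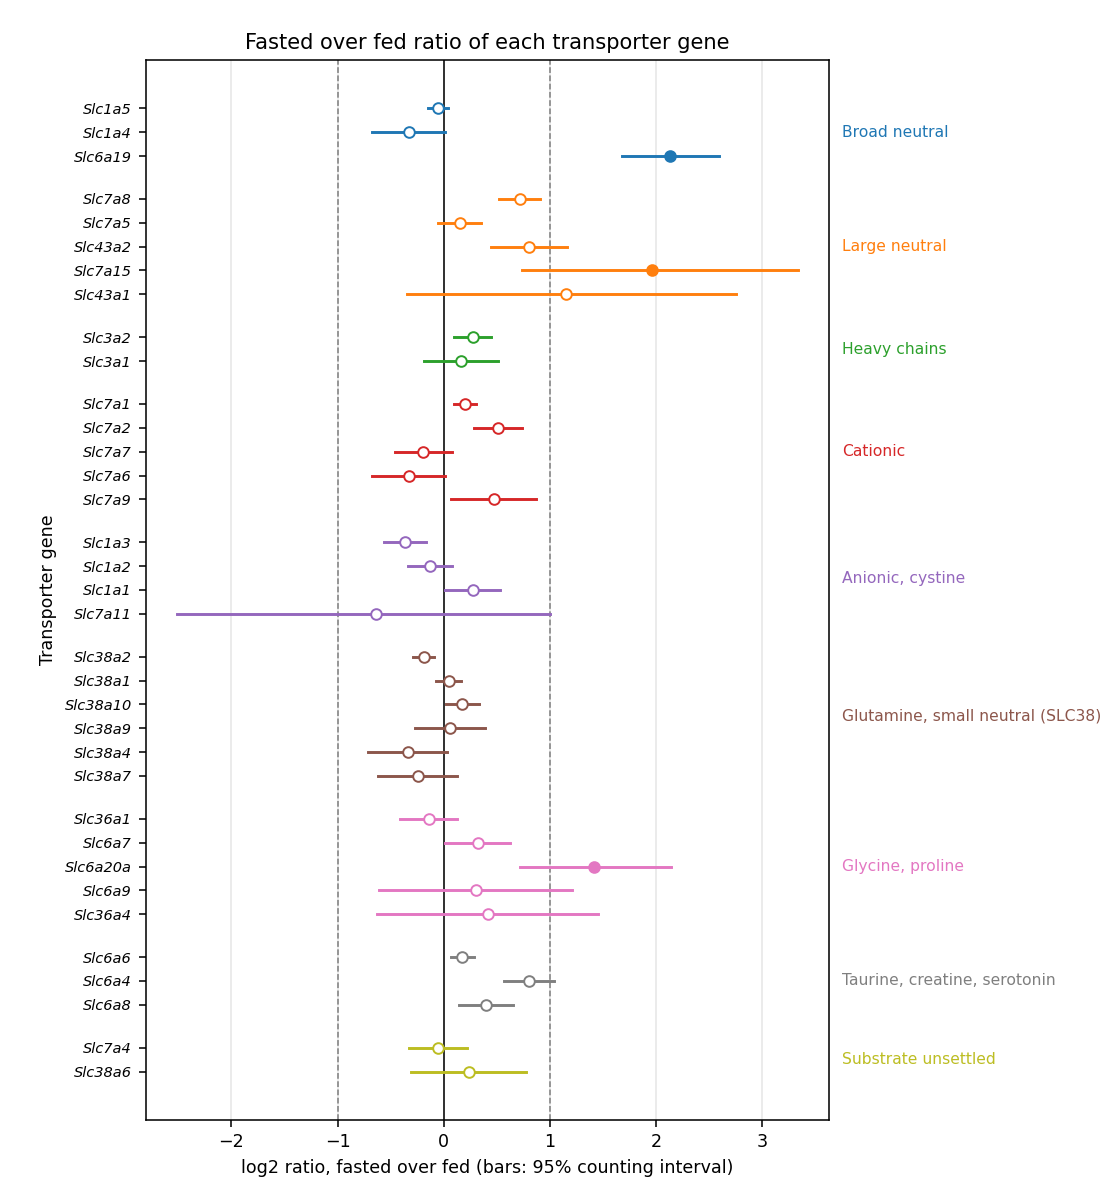
Log2 ratio of fasted over fed (horizontal axis) of the 35 named transporter genes by substrate group; bars are 95% counting intervals, filled circles are genes called higher and dashed lines mark 2-fold. The filled circles are Slc6a19, Slc7a15 and Slc6a20a. Of the 33 genes with enough counts to be called, 15 have intervals wholly above 0, among them Slc7a8, Slc43a2 and Slc6a4, and 2 wholly below.

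The Slc38 carriers of glutamine and small neutral amino acids took the most transporter counts of all groups, with 29.6% (28.9 to 30.3) when fed and 26.4% (25.7 to 27.2) when fasted. Of 6 measured members 0 were higher or lower, against 2.51% and 1.91% of all measured genes. The median log2 ratio was -0.072, which turned to 0.050 after correction for exon length. Slc38a2 encodes SNAT2, a system A carrier that other cells induce when amino acids are short. It had 2168 counts (310 CPM) and 1346 counts (268 CPM), a log2 ratio of -0.19 (-0.29 to -0.091), or -0.086 after correction for exon length. Slc38a1 encodes SNAT1, another glutamine carrier, and had 194 and 197 CPM and a log2 ratio of 0.045 (-0.075 to 0.16), or 0.19 after that correction. The ratio of Slc38a1 to Slc38a2 changed by 1.18-fold (1.06 to 1.31). Slc38a10, whose substrates include glutamine, had 109 and 121 CPM and a log2 ratio of 0.18 (0.020 to 0.33). Slc38a4, the gene of SNAT4, had 25.1 and 19.5 CPM and a log2 ratio of -0.34 (-0.71 to 0.026).

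Lysosomal members lay close to equality. Slc38a9, whose product senses arginine in the lysosome for mTORC1, had 25.8 and 26.5 CPM and a log2 ratio of 0.061 (-0.27 to 0.39). Slc38a7, a lysosomal exporter of glutamine and asparagine, had 23.5 and 19.5 CPM and a log2 ratio of -0.25 (-0.62 to 0.12). Slc36a1, a proton-coupled carrier of small amino acids, had 41.9 and 37.4 CPM and a log2 ratio of -0.14 (-0.41 to 0.13). All 3 intervals include equality, and none reaches 2-fold in either direction.

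The anionic carriers diverged among themselves. Slc1a3 encodes the glutamate carrier GLAST and had 574 counts (82.2 CPM) and 316 counts (62.9 CPM). Its log2 ratio of -0.36 (-0.57 to -0.16) was the lowest of the 33. Slc1a2, which encodes the glutamate carrier GLT-1, had 69.4 and 62.5 CPM and a log2 ratio of -0.13 (-0.34 to 0.078). Slc1a1 encodes EAAC1, the glutamate carrier of the enterocyte brush border, and had 38.7 and 46.0 CPM and a log2 ratio of 0.27 (0.013 to 0.53). Slc1a1 thus went from 0.470 to 0.731 of the counts of Slc1a3, a change of 1.55-fold (1.24 to 1.95). This pair joins the highest and the lowest measured ratio of the group, so that a difference between them was given beforehand. Slc7a11, the cystine and glutamate exchanger whose upstream sequence is shown above, had 11 and 5 counts, below the sum needed for a call.

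Among carriers of glycine, proline and small neutral amino acids 1 of 5 measured members (20%), Slc6a20a, was higher, against 2.51% of all measured genes. The median was 0.32. Slc6a7, best known as a proline carrier of the brain, had 189 counts (27.1 CPM) and 167 counts (33.3 CPM), a log2 ratio of 0.32 (0.010 to 0.63). The glycine carrier gene Slc6a9 had 24 and 21 counts, with a log2 ratio of 0.31 (-0.61 to 1.21). The proton-linked carrier gene Slc36a4 had 18 and 17 counts, with 0.42 (-0.63 to 1.46). Both intervals include equality and extend beyond a 2-fold rise.

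Carriers of taurine, creatine and serotonin, which are relatives of the amino acid carriers within the Slc6a family, had 0 of 3 measured members past the threshold. All 3 had intervals above equality, against 16.7% of all measured genes, and the median was 0.40. Slc6a4 encodes the serotonin carrier, which clears serotonin released in the gut wall. It had 272 counts (38.9 CPM) and 336 counts (66.9 CPM), a log2 ratio of 0.80 (0.57 to 1.04). The creatine carrier gene Slc6a8 had 38.2 and 49.6 CPM and a log2 ratio of 0.40 (0.14 to 0.65). The taurine carrier gene Slc6a6 had 1657 counts (237 CPM) and 1325 counts (264 CPM), a log2 ratio of 0.18 (0.070 to 0.28). The Slc6a family as a whole had 7 of 7 measured members with a positive log2 ratio and a median of 0.40. The Slc1a family had 1 of 5 (20%), with a median of -0.13. Of all measured genes 47.9% had a positive log2 ratio.

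Of the members without a settled amino acid substrate, Slc7a4 had 39.4 and 37.4 CPM and a log2 ratio of -0.051 (-0.33 to 0.22), and Slc38a6 had 9.45 and 11.0 CPM and a log2 ratio of 0.23 (-0.31 to 0.77). Slc7a6os, which is no transporter, went from 446 to 234 counts, at a log2 ratio of -0.43 (-0.67 to -0.20). The 28 transporters below 1 CPM held no more than 8 counts each in either library, and they include all carriers of GABA, dopamine and noradrenaline. Slc6a14, a carrier of neutral and cationic amino acids, had 8 and 1 counts.

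Per length of exon, the order of the leading members was nearly the same in both libraries. In counts per 1000000 per kilobase of exon, Slc1a5 had 80.9 fed and 76.8 fasted. Slc38a2, Slc6a6, Slc3a2 and Slc7a1 followed with 35.1, 28.0, 23.2 and 20.8 when fed and 30.3, 31.2, 27.5 and 23.6 when fasted. These 5 genes made up 50.1% and 47.1% of the summed level per kilobase of all 63 transporters. Slc6a19 moved from rank 27 to rank 20 of 35, with 1.54 and 6.65, and Slc6a4 from rank 14 to rank 9. All 63 together took 0.232% of the fed and 0.247% of the fasted counts.

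Partner genes and other carriers of amino acids or peptides were counted from a list. Among its 14 measured members 2 were higher (14.3%) and 0 lower, against 2.51% and 1.91% of all measured genes. Their median log2 ratio was 0.099. The peptide carrier gene Slc15a1 had 13 and 52 counts (2.50, 1.60 to 3.50), and Enpep, a brush border peptidase gene, had 126 and 212 counts (1.25, 0.92 to 1.58). Cltrn, whose product serves B0AT1 in the kidney, had 6 counts in each library. Slc16a10, the basolateral carrier of aromatic amino acids, had 128 and 112 CPM and a log2 ratio of -0.16 (-0.32 to -0.011).

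**Figure D4:**
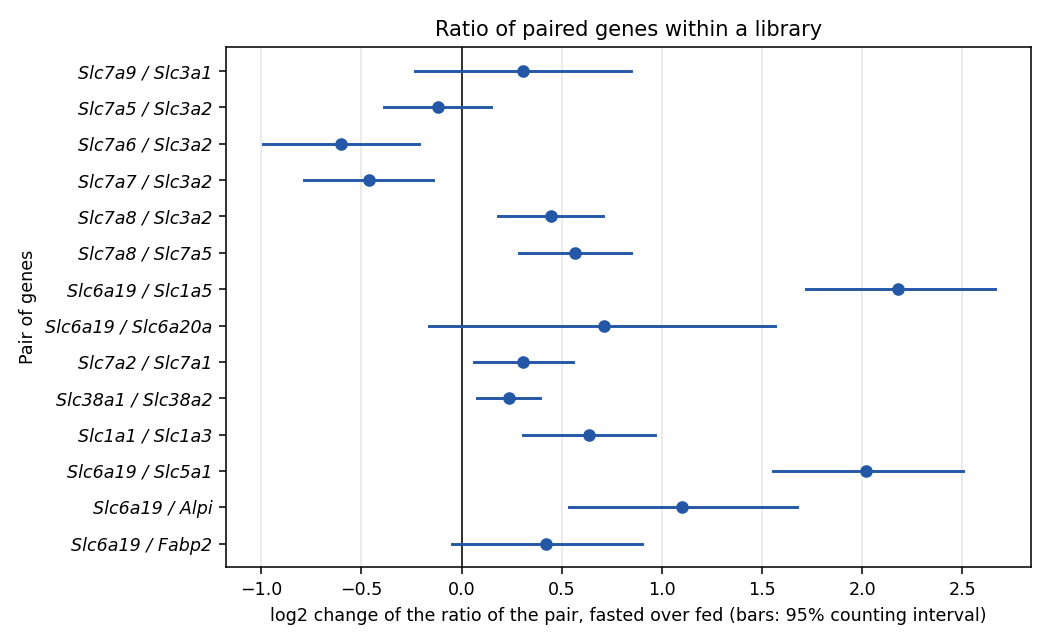
Change of the count ratio of 14 gene pairs between the libraries (log2, fasted over fed); points are values and bars are 95% counting intervals. The ratio of Slc6a19 to Slc1a5 changed most, and those of Slc7a6 and Slc7a7 to Slc3a2 lie below 0.

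Genes that respond to amino acid shortage and genes that sense amino acids lay near equality. Of 26 measured amino acid response genes 0 were higher or lower, against 2.51% and 1.91% of all measured genes. A positive log2 ratio was found for 9 of the 26 (34.6%), against 47.9% of all measured genes, and the median was -0.12. Atf4, the transcription factor gene of this response, had 177 and 175 CPM and a log2 ratio of 0.0028 (-0.12 to 0.13), and its target Asns, the gene of asparagine synthetase, had 0.079 (-0.085 to 0.24). Ddit4, an inhibitor of mTORC1 that is also induced by other stresses, had 0.74 (0.62 to 0.86). Of 30 measured genes of amino acid sensing by mTORC1 0 were higher or lower, and the median was 0.022. The farthest from equality was Sesn3, a sestrin gene, at -0.83 (-1.16 to -0.50). Glutamine and glutamate use was represented by 15 genes, 1 higher (6.67%) and 0 lower, whose median was 0.087. That gene was Gpt, an alanine aminotransferase, with 76 and 117 counts (1.12, 0.69 to 1.56). Glul, the gene of glutamine synthetase, had 0.66 (0.53 to 0.79).

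Among the 20 absorptive enterocyte markers, none was at 0 in either library, and the median log2 ratio was 1.02. Of these markers 11 were higher (55%) and 0 lower, against 2.51% and 1.91% of all measured genes. Goblet cell markers had 4 of 9 higher (44.4%) and summed to 598 and 1207 CPM. Of 15 stem cell markers 1 was lower and 0 higher, at a median of -0.30. Intervals wholly below equality, at any fold, were found for 13 of them (86.7%), against 19.2% of all measured genes. Intervals wholly above it were found for 0. The 15 markers summed to 19173 and 12180 CPM. Olfm4 carried most of that sum, and without it the other 14 came to 4800 and 3923 CPM. Relative to 3 of the enterocyte markers, Slc6a19 changed by 4.06-fold (2.94 to 5.67) against Slc5a1, 2.14-fold (1.45 to 3.19) against Alpi and 1.34-fold (0.969 to 1.87) against Fabp2, the last an interval that includes no change.

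**Figure D5:**
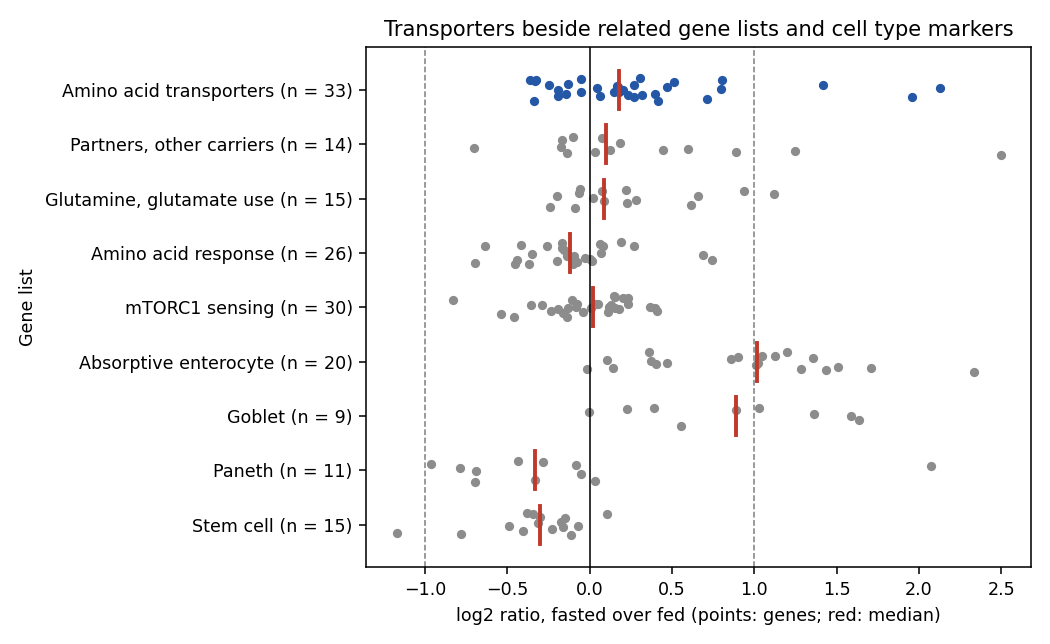
Log2 ratio of fasted over fed (horizontal axis) for the measured genes of 9 lists; each point is a gene, red lines are medians and dashed lines mark 2-fold. The transporters have a median of 0.18, between the amino acid response genes at -0.12 and the absorptive enterocyte markers at 1.02.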

How the data were processed

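RNA-seq reads of 2 libraries had been assigned to Ensembl genes by the authors, and the deposited counts are whole numbers without normalisation. The submitters' processing notes name FastQC, STAR, HTSeq and DESeq, without versions or roles, and the builds GRCm38 and mm10. Which annotation and strand setting the counting used is not given in the sources used here. Reads of genes that overlap, on either strand, therefore cannot be separated. The other deposited table, of normalised values, holds a signal that equals each count divided by 1 factor per library (1.19 fed, 0.842 fasted), with 99.9% of values matched within 0.0051.

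Symbols, gene types, exon lengths and coordinates came from GENCODE release M21 (GRCm38), which matched 45143 of 45706 gene IDs. Promoter windows came from RefSeq. Ratios used median-of-ratios size factors and exact Clopper-Pearson intervals (scipy 1.17.1). Changes of a ratio between a pair of genes used the exact conditional interval of the odds ratio. The 14 pairs were not set before the values were seen. 1 count equals 0.143 CPM (fed) or 0.199 CPM (fasted). Intervals cover counting error only, and reads without molecular identifiers are not independent molecules. The procedure was run on counts simulated with counting error only, which is what the intervals assume. That run checks the code and cannot show how calls from 1 library a group hold under variation between mice. Named genes are all transporters with a mean of at least 1 CPM. From the 4 lists of related pathways, the called genes were named. Other genes of those lists and the cell type markers that are named were chosen after their values were seen. From the list of partner genes, 1 gene is not reported here. The members, lists and substrate groups were chosen with earlier results of these data known. Alternatives were upper-quartile factors, total counts and TMM factors (edgeR 4.0.16), ratios from the deposited normalised table, correction for exon length (running median over 2001 genes), other thresholds and filters, summed counts, members without exon overlap and, added after seeing the data, inclusion of Slc7a6os and omission of Slc7a15.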

Additional observations from a re-analysis of the deposited data

How the results depend on the processing

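With upper-quartile factors, total counts, TMM factors, the deposited normalised table, correction for exon length, no low-count filter or inclusion of Slc7a6os, 3 transporters were higher and 0 lower, as reported. The number higher was 2 at 3-fold, at a minimum of 5 CPM, on leaving out Slc7a15 and among members without exon overlap, which leaves out Slc6a20a. It was 6 at 1.5-fold, and 1, Slc6a19, where the near bound of the interval was required to pass 2-fold. No share of all measured genes is given at these other thresholds and filters, so these counts cannot be set against one. The median of the cationic carriers moved from 0.20 to 0.33 after correction for exon length and to -0.19 without the low-count filter, which adds 2 members of few counts. The medians of the anionic group (-0.13, 0.0024 after length correction), the Slc38 group (-0.072, 0.050 after length correction) and the broad neutral group (-0.054, 0.030 for summed counts) also changed sign. Correction for exon length moved 3 single ratios beyond their intervals, Slc38a2 from -0.19 to -0.086, Slc7a1 from 0.20 to 0.33 and Slc38a1 from 0.045 to 0.19. Scaling alternatives shifted all log2 ratios by at most 0.024. No paired analysis was possible because each group is 1 library, which also leaves no replicate to omit. Depth limits Slc6a9, Slc36a4 and Slc7a15, whose 45, 35 and 30 counts in sum give intervals 1.82, 2.09 and 2.60 log2 units wide.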

Other observations

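Absorptive enterocyte markers did not share 1 ratio. Vil1, which encodes the brush border protein villin, went from 4015 to 2816 counts, at a log2 ratio of -0.014 (-0.084 to 0.056). Slc5a1, the sodium-coupled glucose carrier gene, had 1612 and 1229 counts and 0.11 (-0.0018 to 0.21). Apob had 3261 and 2552 counts and 0.14 (0.069 to 0.22). Apoa1 went from 410 to 1462 counts, with 2.33 (2.17 to 2.49), and Fabp2 from 993 to 2297, with 1.71 (1.60 to 1.82). Among peptidases of the brush border, Dpp4 had 0.033 (-0.076 to 0.14), Anpep 0.60 (0.50 to 0.70) and Enpep 1.25 (0.92 to 1.58). Slc6a19, at 2.13, had a higher log2 ratio than any of the 20 markers except Apoa1. These genes were chosen after their values were seen, and the reason for the spread was not tested.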
